A study of Homo sapiens with 4 samples.

Results

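Small clusters of KRAB zinc finger protein (KZFP) genes on 6 chromosomes were examined, outside the large arrays of chromosome 19. The members were all CpGs of 6 windows set by position alone, summed in tiles of 5 kb, and gave 590 tiles of the 567027 tiles with a CpG read in the series. The windows, in hg19 (GRCh37) coordinates, were KZFP 1q44 (chr1:247050000-247600000), KZFP 3p21.31 (chr3:44400000-44800000), KZFP 5q35.3 (chr5:178100000-178700000), KZFP 7q36.1 (chr7:148700000-149300000), KZFP 8q24.3 (chr8:145900000-146300000) and KZFP 16p13.3 (chr16:3100000-3500000). Together they covered 2950 kb with 48701 CpGs and 66 protein-coding genes. Of these genes, 34 encoded a KZFP, 9 another C2H2 zinc finger protein without a KRAB domain, and 23 another protein.

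The cells were HEK293T, a human embryonic kidney line, and DNA methylation was read with EM-seq (enzymatic methyl sequencing), where enzymes convert unmethylated cytosine so that it reads as T. The groups were WT cells and ZNF274KO cells, with 2 libraries each and no other treatment. According to the methods of the study, ZNF274 was deleted with a pair of Cas9 guides either side of the gene, and transfected cells were selected with puromycin and sorted singly, so that ZNF274KO cells descend from clones. The sources used here do not say whether the 2 libraries of a group came from separate clones or cultures, and p-values therefore measure only the spread between these libraries. ZNF274 itself, at chr19:58694396-58724928, held 5158 and 4274 reads in the WT libraries, against 0 in ZNF274KO 1 and 14 in ZNF274KO 2.

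KZFPs are transcription factors that bind DNA through an array of C2H2 fingers and repress through the KRAB domain, which recruits TRIM28 and the histone methyltransferase SETDB1. Their genes arose by tandem duplication and usually lie in clusters, with all fingers encoded in a single last exon. ZNF274 is itself a KZFP that binds within the finger-coding exons of KZFP genes and recruits SETDB1, which places H3K9me3. The study reports no such build-up of ZNF274 on other zinc finger genes. CpG methylation (mCG) is commonly low over CpG islands at promoters and high over transcribed gene bodies.

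The sequence in which the methylation was read is shown for finger-coding exons, because the 5 kb tile with the largest difference held one, that of ZNF454. Each line gives the 180 coding bases with the most CpGs that every library covered at least 3 times, taken from the GRCh37 genome and written 5′ to 3′ on the coding strand (minus for ZNF354A, plus for the others), with CpGs in capitals. The first 4 stretches belong to genes whose fingers were called higher in ZNF274KO and the last pair to neighbours on 5q35.3 that were not. The 6 genes were chosen after their values were seen.
ZNF454, chr5:178392074-178392253: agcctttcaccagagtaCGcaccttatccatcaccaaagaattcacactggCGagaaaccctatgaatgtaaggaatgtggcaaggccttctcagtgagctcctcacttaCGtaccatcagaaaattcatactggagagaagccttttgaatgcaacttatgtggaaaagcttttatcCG
ZNF354C, chr5:178506546-178506725: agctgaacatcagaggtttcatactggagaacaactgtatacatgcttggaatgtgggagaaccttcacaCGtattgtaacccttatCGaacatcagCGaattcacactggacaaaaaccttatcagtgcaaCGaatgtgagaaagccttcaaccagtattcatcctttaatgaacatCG
ZFP2, chr5:178359169-178359348: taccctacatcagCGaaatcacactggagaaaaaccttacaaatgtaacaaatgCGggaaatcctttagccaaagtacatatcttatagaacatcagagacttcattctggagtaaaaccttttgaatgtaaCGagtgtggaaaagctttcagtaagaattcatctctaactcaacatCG
ZNF660, chr3:44636051-44636230: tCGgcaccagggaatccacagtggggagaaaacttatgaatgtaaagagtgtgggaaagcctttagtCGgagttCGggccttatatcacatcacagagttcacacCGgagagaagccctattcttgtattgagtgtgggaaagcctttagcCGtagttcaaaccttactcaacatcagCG
ZNF354A, chr5:178139485-178139664: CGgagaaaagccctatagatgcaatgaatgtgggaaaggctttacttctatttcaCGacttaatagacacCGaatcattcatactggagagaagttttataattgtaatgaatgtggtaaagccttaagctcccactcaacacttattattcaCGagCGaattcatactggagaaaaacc
ZNF354B, chr5:178310560-178310739: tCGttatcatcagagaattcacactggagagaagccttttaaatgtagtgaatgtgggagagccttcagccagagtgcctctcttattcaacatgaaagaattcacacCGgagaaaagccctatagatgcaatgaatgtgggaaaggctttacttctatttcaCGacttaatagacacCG

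Counts are CpG reads, so that a read spanning several CpGs counts at each. Over the 4 CpGs of the ZNF454 stretch, 2 of 37 CpG reads were methylated in WT 1 and 2 of 59 in WT 2. In ZNF274KO 1 it was 38 of 39, and in ZNF274KO 2 it was 44 of 49. In the ZNF354C stretch the counts were 0 of 67 in WT 1 and 4 of 51 in WT 2. ZNF274KO 1 and 2 had 60 of 87 and 23 of 50. The 0 of 67 would allow a level of up to 4.48% if CpG reads were independent, so that the true limit is wider. The ZFP2 stretch went from 17.2% and 12.7% in WT to 67.2% and 58.3% in ZNF274KO, and the ZNF660 stretch from 42.6% and 41.0% to 65.9% and 66.7%. The ZNF354A stretch was between 91.1% and 98.4% and the ZNF354B stretch between 87.5% and 100% in all 4 libraries. The finger-coding sequences of ZNF354A and ZNF354B shared an identical run of 242 bases, so that reads from one copy may have been placed on the other. The start of the ZNF354A stretch shown is identical to the end of the ZNF354B stretch. These bases hold most CpGs of both, so that the levels of the ZNF354A and ZNF354B stretches may not be independent. Among all 91 pairs of the 14 finger-coding sequences of 3p21.31 and 5q35.3, ZNF852 and ZKSCAN7 (113 bases) were the only other pair to share a run of at least 50 bases.

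The libraries held between 241598512 and 295114493 CpG reads, and the median depth of a CpG was 8 to 10 reads. Levels of mCG are given as the methylated share of CpG reads in percent, and differences are given in percentage points, ZNF274KO minus WT. Every tile of the 6 windows passed the minimum of 20 reads and 5 CpGs in each library, with a median of 628 to 709 reads per tile. The 1q44 window was shallower, with 22772 to 42526 reads over 7824 CpGs against 44444 to 52441 over 4150 CpGs at 3p21.31. Of all CpG reads of a library, the 1q44 window held 0.00916% and 0.0167% in WT and 0.00971% and 0.00943% in ZNF274KO, so that WT 2 stood above the other 3 libraries. The 5q35.3 window held 0.0330% and 0.0435% in WT and 0.0460% and 0.0471% in ZNF274KO, with WT 1 the lowest. The part of read share in the methylation differences was not tested.

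Methylation rose over KZFP 5q35.3 as a whole. The window was at 55.0% in WT 1 and 52.9% in WT 2, against 74.1% in ZNF274KO 1 and 69.3% in ZNF274KO 2. The difference was 17.8 points (54.0% ± 1.54 in WT, 71.7% ± 3.43 in ZNF274KO, mean ± SD, n = 2), and the window was called when fitted with all 500 kb bins of the genome (edgeR, adjusted p = 5.06e-07). Among these bins 0.907% were called, all higher. Without ZNF274KO 1 the difference was 15.3 points and the adjusted p of edgeR 0.104.

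The other 5 clusters were not called as whole windows. KZFP 3p21.31 came closest, at 60.8% and 62.1% in WT against 67.8% and 64.9% in ZNF274KO, a difference of 4.92 points with no overlap between groups (edgeR, adjusted p = 0.397). KZFP 1q44 was at 68.1% and 69.6% in WT and 70.6% and 68.6% in ZNF274KO. KZFP 8q24.3 was at 60.5% and 61.8% in WT and 62.5% and 60.1% in ZNF274KO. The levels of these 2 clusters overlapped between groups, as did those of the next 2. KZFP 7q36.1 went from 70.5% and 69.1% to 69.5% and 66.5%, and KZFP 16p13.3 from 62.0% and 59.7% to 61.6% and 58.4%.

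**Figure D1:**
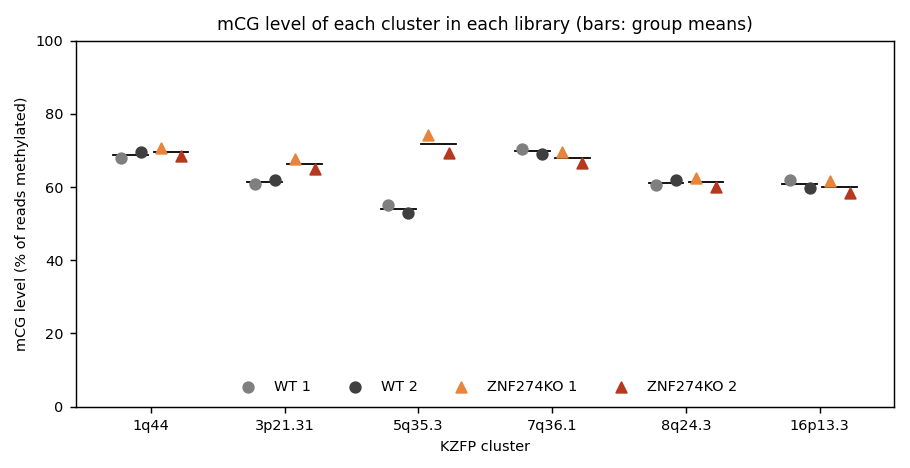
mCG level (y axis, % of CpG reads methylated) of each of the 6 small KZFP clusters (x axis) in WT libraries (circles) and ZNF274KO libraries (triangles), with bars at the group means. KZFP 5q35.3 has the widest gap, 54.0% against 71.7%, KZFP 3p21.31 a gap of 4.92 points, and the symbols of both groups overlap in the other 4 clusters.

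In the tiles, differences were as unevenly spread as in the whole windows. Of the 590 tiles, 90 were called (edgeR, adjusted p under 0.05 over all tiles), 89 higher and 1 lower in ZNF274KO, where 0.473% of all tiles were called higher and 0.0131% lower. KZFP 5q35.3 held 74 of the higher tiles among its 120, KZFP 3p21.31 held 11 of 80, and KZFP 8q24.3 held 4 of 80 together with the lower tile. KZFP 1q44, KZFP 7q36.1 and KZFP 16p13.3 held none among 110, 120 and 80 tiles, and in each of them 6 tiles had an unadjusted p under 0.05, as 6.52% of all tiles did. In limma, on log ratios, 15 tiles of the 6 windows were called, 14 of them at 5q35.3 and 1 at 3p21.31, against 0.152% of all tiles. ZNF274KO 1 was above ZNF274KO 2 in 85 of the 89 higher tiles. It was also the higher of these libraries over the whole genome, at 60.2% against 58.4%.

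**Figure D2:**
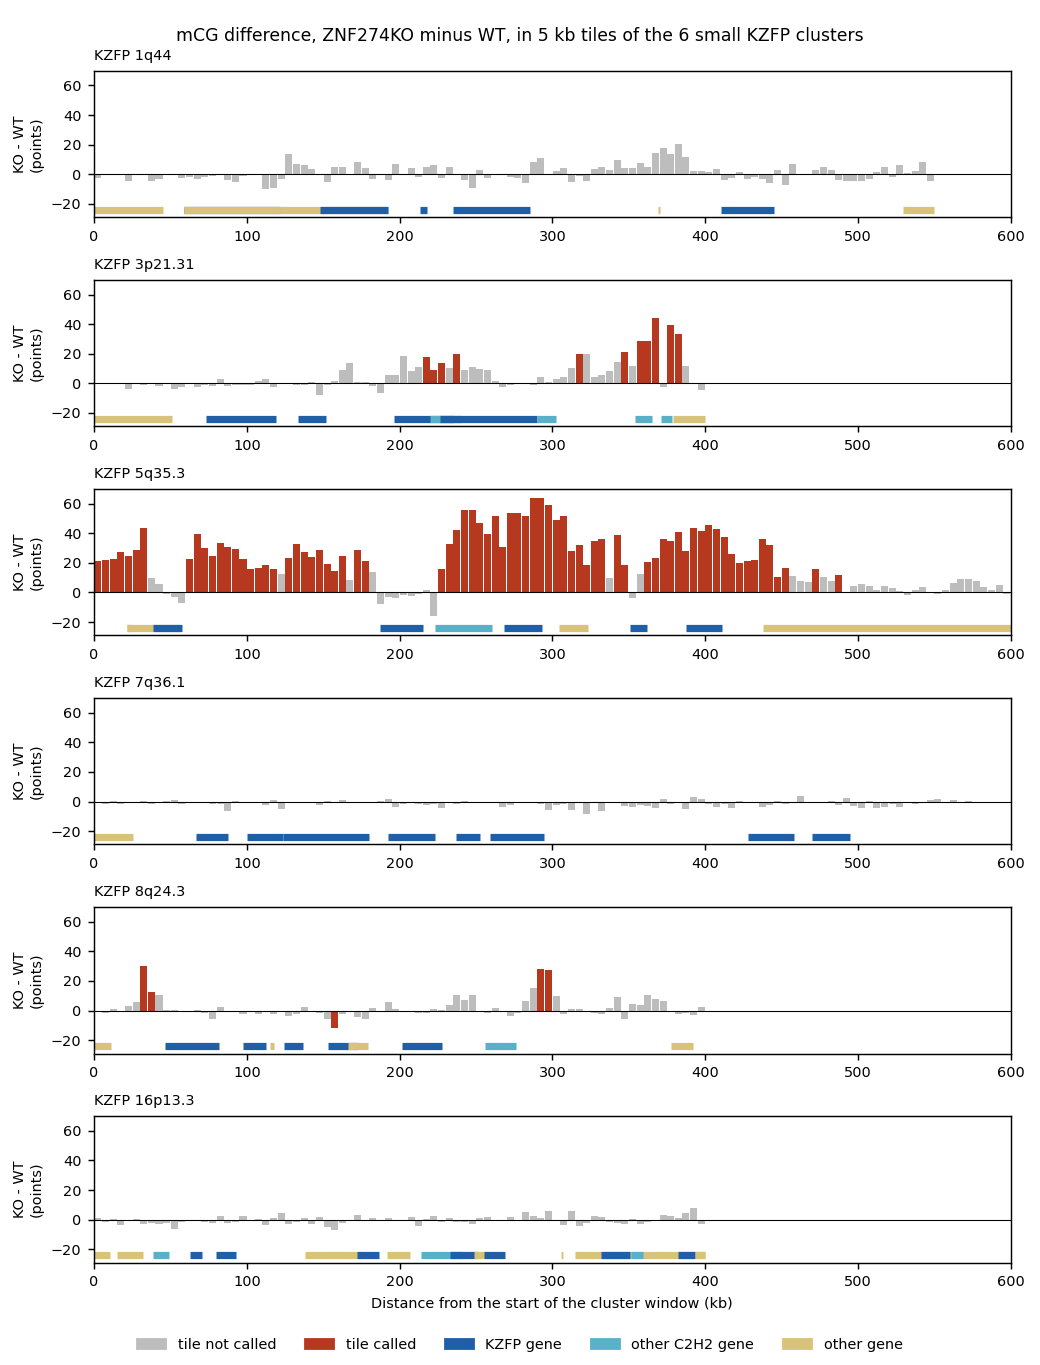
Difference in mCG level, ZNF274KO minus WT (y axis, percentage points), in each 5 kb tile along the 6 clusters (x axis, kb from the start of the window), with called tiles in red and gene bodies drawn below as blue (KZFP), light blue (other C2H2) and yellow (other) bars. Called tiles run through most of KZFP 5q35.3, fall in patches at KZFP 3p21.31 and KZFP 8q24.3, and are absent from the other 3 panels.

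At KZFP 5q35.3 the higher tiles formed long runs. The longest run covered 110 kb (chr5:178325001-178435000) over ZFP2, a C2H2 gene without a KRAB domain, ZNF454, a KZFP gene, and GRM6, which encodes the metabotropic glutamate receptor of retinal ON bipolar cells. Its mean level went from 26.8% to 70.7%, and its 22 tiles differed by 15.8 to 63.5 points. A second run of 95 kb (chr5:178460001-178555000) took in the end of ZNF879, ZNF354C and the end of ADAMTS2, a procollagen-processing protease, at 27.8% in WT and 58.3% in ZNF274KO. A run of 35 kb at the start of the window covered MSANTD5. Runs of 60 and 40 kb lay between ZNF354A and ZNF354B, in a stretch without protein-coding genes. Single uncalled tiles also separated runs inside this stretch. No run reached into ZNF354A or ZNF354B, whose bodies were at 76.1% and 69.9% in WT on average and at 72.0% and 67.1% in ZNF274KO.

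**Figure D3:**
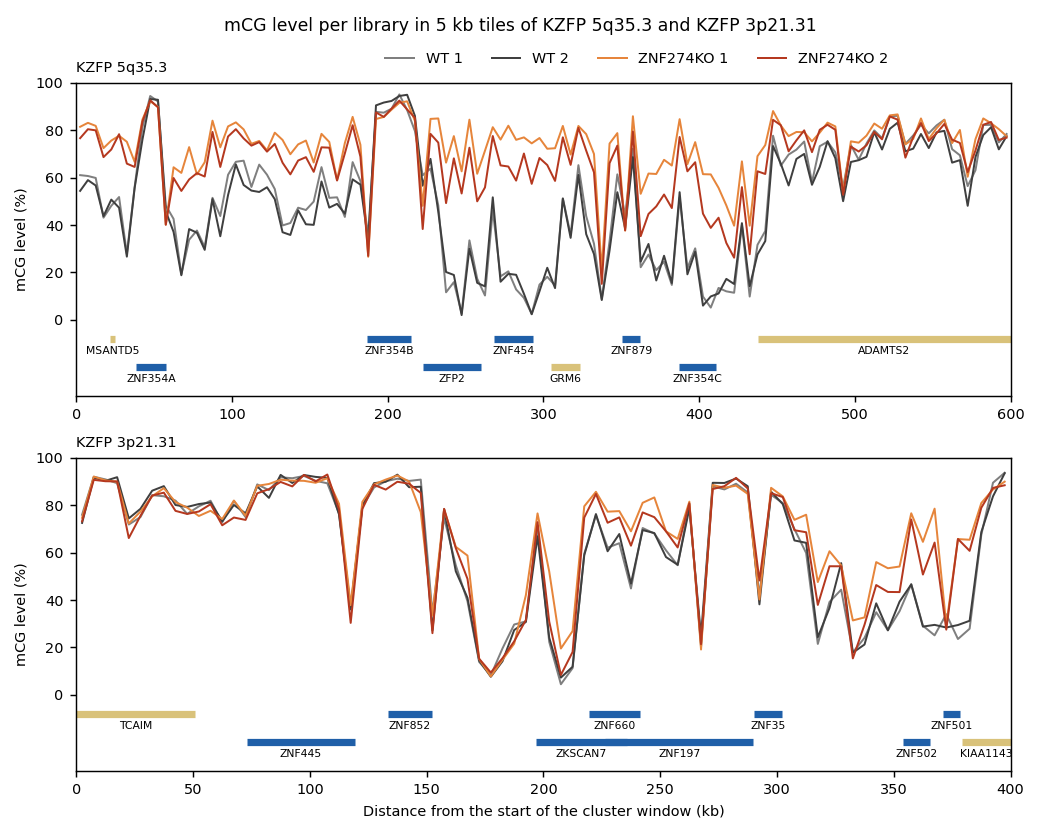
mCG level (y axis, %) of each 5 kb tile in the 4 libraries (grey and black lines for WT, orange and red for ZNF274KO) along KZFP 5q35.3 and KZFP 3p21.31 (x axis, kb from the start of the window), with zinc finger genes in blue and other named genes in yellow. At 5q35.3 the WT lines lie below the ZNF274KO lines over most of the window, but not at ZNF354A, at ZNF354B, at the start of ZFP2 or over most of ADAMTS2, and at 3p21.31 the lines part mainly around ZKSCAN7 and ZNF660 and around ZNF502 and ZNF501.

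The named tiles of 5q35.3, those with the largest rises, both lay in ZNF454. The tile chr5:178390001-178395000, which holds the fingers, was at 2.46% and 2.32% in WT and at 74.5% and 57.4% in ZNF274KO (edgeR, adjusted p = 2.14e-07). The tile before it was at 9.23% and 11.0% in WT and at 77.0% and 70.2% in ZNF274KO. Both tiles were thus at 11.0% or less in WT and mostly methylated in ZNF274KO, and ZNF274KO 1 was the higher library in each. Over CpGs of the window that all 4 libraries covered with at least 5 reads, 28.3% and 29.0% had a level under 20% in WT, against 7.51% and 10.1% in ZNF274KO.

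The higher tiles of 5q35.3 were mostly those with a low level in WT. Leaving out tiles with a gene start, 21 of 22 tiles under 20% in WT were called higher, 21 of 21 from 20% to 40%, 20 of 26 from 40% to 60%, 8 of 28 from 60% to 80% and 0 of 15 above. The median level in ZNF274KO was 57.9% in the first of these classes and 85.6% in the last. KZFP 7q36.1 had 8 such tiles under 20% in WT and 11 from 20% to 40%, of which none was called, and their median differences were -1.52 and -2.23 points. At 3p21.31, 0 of 6 tiles under 20% and 6 of 13 tiles from 20% to 40% were called higher. These classes use the same WT libraries as the differences, and are given as a description.

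At KZFP 3p21.31 the rises lay in the second part of the window, in patches of 5 to 15 kb. The tile chr3:44765001-44770000, which lies mostly beyond the end of ZNF502, was at 25.1% and 29.5% in WT. In ZNF274KO it was at 78.6% and 64.3% (edgeR, adjusted p = 4.92e-05). The tile chr3:44775001-44780000, which holds the coding part of ZNF501, was at 23.5% and 29.5% in WT and 65.8% in each ZNF274KO library (edgeR, adjusted p = 0.000102). The groups were well apart in each. Of the other called tiles, 2 adjoined the first inside ZNF502 and 1 adjoined the second inside KIAA1143, which encodes no zinc finger protein. The rest lay in the overlapping genes ZKSCAN7, ZNF660 and ZNF197 or between protein-coding genes. No tile was called over ZNF445 or ZNF852, the KZFP genes of the first part of the window, where tiles differed by -8.17 to 3.15 points. In place of 11, 4 tiles of this window were called without ZNF274KO 1, 17 without ZNF274KO 2, 17 with the replicate number as a block and 21 with the numbers crossed, where calls over the genome went from 2741 to 1896, 3793, 4791 and 6626.

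The 4 higher tiles of KZFP 8q24.3 lay between protein-coding genes. The tile chr8:145930001-145935000 was at 12% and 15.2% in WT and 48.9% and 38.3% in ZNF274KO, and the tile chr8:146190001-146195000 at 19.5% and 19.6% in WT and 47.6% and 46.9% in ZNF274KO. The lower tile, chr8:146055001-146060000 inside the KZFP gene ZNF7, went the other way, from 94.0% and 94.2% to 80.6% and 83.6% (edgeR, adjusted p = 0.000207). It was the lone called fall among the 590 tiles.

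In the 3 windows without a called tile, the largest difference without overlap among tiles with at least 20 CpGs is given as a value. Limma called no tile in these windows either. At 1q44 a tile mostly beyond the end of VN1R5, a vomeronasal receptor gene, was at 28.4% and 44.1% in WT. It was at 59.4% and 48.2% in ZNF274KO (edgeR, adjusted p = 0.666), with 155 to 256 reads per library. At 16p13.3 the tile holding the starts of ZNF597, an imprinted KZFP gene, and NAA60 was at 53.6% and 59.97% in WT and 64.5% and 64.1% in ZNF274KO (edgeR, adjusted p = 0.641). At 7q36.1 the largest was a fall between protein-coding genes, from 35.9% and 44.6% to 30.4% and 33.2% (edgeR, adjusted p = 0.688). The tiles of 7q36.1 leaned lower, with 45 of 120 (37.5%) below both WT libraries in both ZNF274KO libraries, against 22.3% of all tiles. The median difference was -1.05 points there and -0.58 over all tiles, and no tile of 7q36.1 differed by more than 8.43 points. The median over all tiles was -1.24 points without ZNF274KO 1 and 0.09 points without ZNF274KO 2. The difference of the whole 7q36.1 window, -1.78 points, was -3.27 points without ZNF274KO 1 and -0.30 points without ZNF274KO 2.

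Gene bodies, from transcription start to end, were called higher for 9 of the 66 genes, where 0.888% of all protein-coding bodies and 25.1% of the 374 KZFP bodies were. None was called lower, against 0.0303% of all bodies. All 9 lay at 5q35.3 or 3p21.31. They comprised 3 of the 34 KZFP genes, 3 of the 9 other C2H2 genes and 3 of the 23 other genes. Some of these bodies overlap, ZKSCAN7 with ZNF660 and MSANTD5 with ENSG00000285978, so that shared CpGs count under each. ENSG00000285978 also overlaps ZNF354A, which was not called. Limma called 4 of the 9, all at 5q35.3 and none at 3p21.31, against 0.287% of all bodies. Whether the share of KZFP genes differed from that in the genome was not tested.

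The KZFP bodies called were ZNF454, ZNF354C and ZKSCAN7. ZNF454 was at 18.6% and 22.5% in WT and 78.9% and 66.1% in ZNF274KO, a difference of 51.9 points (edgeR, adjusted p = 1.01e-06). ZNF354C was at 26.99% and 29.4% in WT and 73.1% and 61.7% in ZNF274KO (edgeR, adjusted p = 5.88e-06). ZKSCAN7, which also encodes a SCAN domain for pairing with other SCAN proteins, rose less, from 57.1% and 56.7% to 70.1% and 66.2% (edgeR, adjusted p = 0.0118).

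The other C2H2 bodies called were ZFP2, ZNF502 and ZNF660. ZFP2 went from 32.3% and 33.9% to 68.2% and 57.5% (edgeR, adjusted p = 4.02e-05), ZNF502 from 39.3% and 39.8% to 63.5% and 56.6%, and ZNF660 from 66.7% and 67.7% to 80.1% and 78.2%. Genes of other kinds at 5q35.3 rose too. GRM6 went from 47.2% and 45.7% to 77.7% and 73.2% (edgeR, adjusted p = 1.77e-06), and MSANTD5 and the gene ENSG00000285978, whose bodies overlap, rose by 22.1 and 13.8 points. Without ZNF274KO 1, the bodies of ZKSCAN7, ZNF660, ZNF502 and MSANTD5 were no longer called, with adjusted p of edgeR from 0.123 to 0.268, and 5 bodies were called in all.

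The median difference of all gene bodies of the genome was -0.93 points, and it was -1.65 without ZNF274KO 1 and -0.17 without ZNF274KO 2. Among bodies that were not called, at 5q35.3 ZNF354A and ZNF354B differed by -4.12 and -2.77 points and ZNF879 by 5.02 points, and at 3p21.31 ZNF501 differed by 11.6 points and ZNF445 by -0.74 points. In the 4 other clusters, 46 bodies differed by -7.09 points (ZNF7) to 9.75 points (VN1R5, on 6 CpGs). The largest differences in the remaining windows were those of ZNF786 at 7q36.1 (-4.86 points) and ZNF597 at 16p13.3 (7.99 points).

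Promoters, 1 kb either side of the start, were called higher for 3 of the 66 genes, all at 5q35.3, where 0.187% of all promoters were. The GRM6 promoter was at 32.4% and 29.0% in WT and 74.4% and 70.9% in ZNF274KO (edgeR, adjusted p = 0.00293). The ZNF454 promoter was at 59.6% and 64.2% in WT and 86.7% and 84.1% in ZNF274KO (edgeR, adjusted p = 0.0371), and the ZNF354C promoter at 67.2% and 69.3% in WT and 89.1% and 86.5% in ZNF274KO (edgeR, adjusted p = 0.0493). At an unadjusted p under 0.05 edgeR had 12 of the 66 promoters, against 6.05% of all. Limma called none of the 66, as it called 0.0% of all promoters, and had 13 of the 66 at an unadjusted p under 0.05, against 5.51% of all. Within 500 bases of the start edgeR called none of the 65 tested and 0.00525% of all. Without WT 1, and likewise without ZNF274KO 1, the GRM6 promoter alone was called among the 66, and 75 and 30 promoters were called over the genome, against 49 with all libraries.

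Some KZFP promoters were nearly free of methylation in both groups. The ZNF354B promoter was at 3.63% and 3.43% in WT and 2.06% in each ZNF274KO library, and those of ZNF445 and ZNF852 were between 2.63% and 6.10% in all 4 libraries. The ZFP2 promoter, not called, was lower in ZNF274KO, from 48.5% and 40.8% to 33.1% and 23.5% (edgeR, adjusted p = 0.598), while its body rose. ZNF501 at 3p21.31 likewise had a lower promoter, not called, at 34.1% and 27.02% in WT and 19.7% and 20.9% in ZNF274KO, beside fingers called higher. The largest promoter difference at 3p21.31, not called, was that of ZNF197, at 67.0% and 65.7% in WT and 78.9% and 75.9% in ZNF274KO. At the other 4 clusters no promoter was called, and the largest differences were 10.6 points at ZNF597, 9.03 at VN1R5, -4.92 at ZNF16 and -3.98 at ZNF786.

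**Figure D4:**
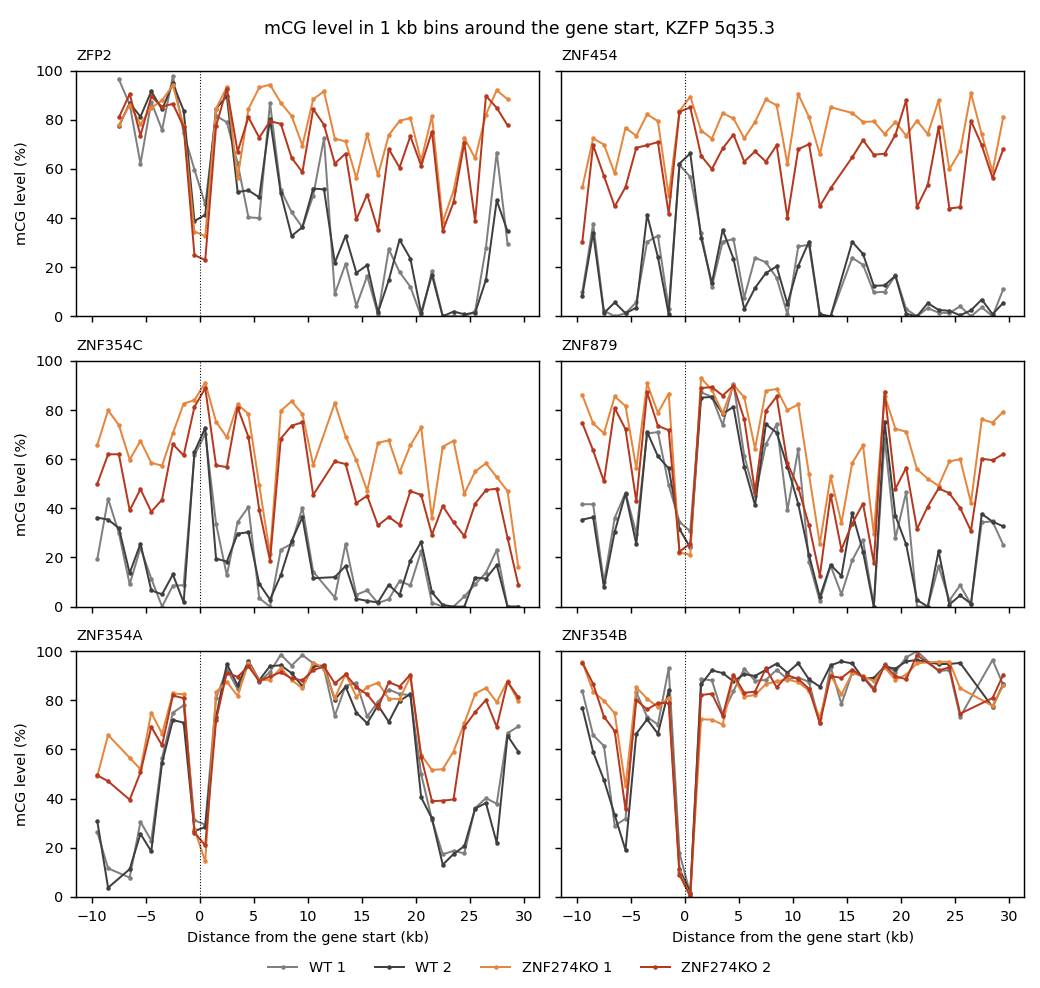
mCG level (y axis, %) in 1 kb bins from the gene start (x axis, kb, in the direction of transcription, dotted line at the start) for the 6 C2H2 genes of KZFP 5q35.3, with one line per library. The levels of ZNF454 and ZNF354C part on both sides of the start, those of ZFP2 are lower in ZNF274KO at the start and higher from about 4 kb on, and those of ZNF354B stay together.

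Around the starts of ZNF454 and ZNF354C, the bases next to the start were more methylated in WT than those further inside the gene. Within the first 500 bases of ZNF454 the level was 64.3% and 76.5% in WT and 91.4% and 87.5% in ZNF274KO, on 35 CpGs. The difference there was 19.1 points, and in the other 9 bins of 500 bases up to 5 kb inside ZNF454 it was 26.9 to 60.3 points. ZNF354C had 75.9% and 80.6% in WT in its first 500 bases and 92.2% and 91.6% in ZNF274KO. The difference there was 13.6 points, and in the other 9 bins of ZNF354C it was 25.8 to 55.8 points. Both genes were chosen after their values were seen.

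Finger-coding stretches run from the first to the last finger, and 39 of the 43 C2H2 genes had enough reads and CpGs to be tested. Of these, 5 were called higher and 1 lower (edgeR), where 14.1% of the 511 tested stretches of the genome were called higher and 1.57% lower. ZNF454 changed most, from 4.48% and 3.26% to 78.7% and 65.0% (edgeR, adjusted p = 2.39e-10). ZNF354C went from 9.45% and 15.6% to 68.0% and 42.6%, ZFP2 from 30% and 21.33% to 63.3% and 52.9%, and ZNF501 from 30.7% and 46.7% to 78.0% and 72.2% on 6 CpGs. In ZNF660 the fingers rose from 41.8% and 42.8% to 62.1% and 63.4% (edgeR, adjusted p = 0.0385), and in ZNF282, a KZFP gene of 7q36.1, they fell from 97.9% and 97.2% to 94.6% and 94.9% (edgeR, adjusted p = 0.0320). The calls of ZNF660 and ZNF282 were lost whichever library was left out, with adjusted p from 0.0524 to 0.246, and that of ZNF501 without WT 1 (edgeR, adjusted p = 0.106).

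Finger-coding stretches were highly methylated in WT except in a few genes. At 5q35.3 and 3p21.31, 8 of 14 stretches were under 60% in WT, from 3.87% to 48.1%, and differed by 10.3 to 68.0 points. Of these 8, 5 were called higher, and ZKSCAN7, ZNF502 and ZNF879 were not (edgeR, adjusted p = 0.078, 0.219 and 0.061). The grouping uses the same WT libraries as the differences and is a description. The other 6 were at 79.0% or more in WT and differed by -2.56 to 5.59 points, with none called. At the remaining 4 clusters all 25 stretches were between 65.5% and 98.7% in WT and differed by -5.26 to 10.3 points. ZNF263 and the overlapping gene ENSG00000290183 share 1 stretch, which is counted under both.

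**Figure D5:**
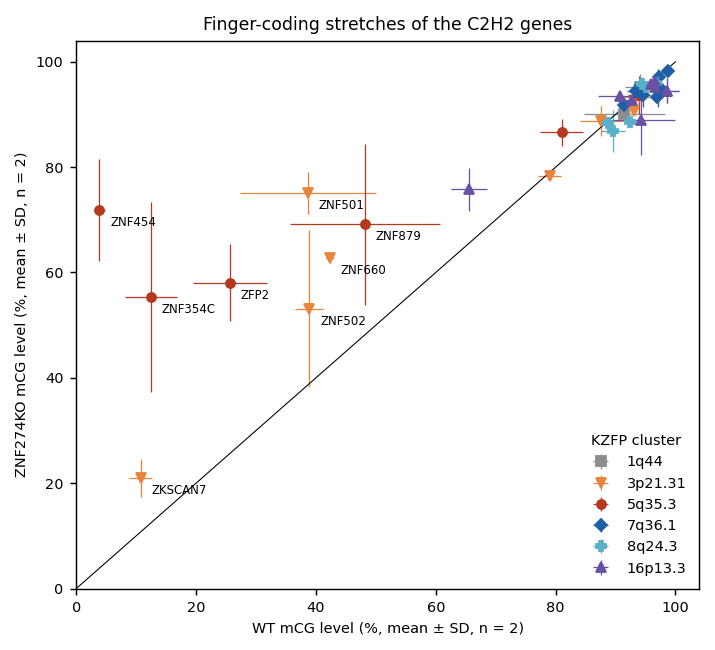
Mean mCG level of finger-coding stretches in WT (x axis, %) and ZNF274KO (y axis, %) for the 39 tested C2H2 genes, with bars of 1 SD over the 2 libraries of each group and a line of equal levels. The 8 named genes, all at 5q35.3 or 3p21.31, lie left of 60% in WT and above the line, and the others lie near the line at the upper right.

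The rise at 5q35.3 was not confined to fingers or protein-coding genes. Split by position, CpGs between genes went from 44.9% and 42.1% to 72.7% and 66.6%, fingers from 46.1% and 47.3% to 77.3% and 68.1%, the rest of gene bodies from 63.0% and 60.9% to 78.6% and 74.6%, and promoters from 40.4% and 41.8% to 47.5% and 44.6%. The pooled difference was 4.99 points in promoters against 26.2 between genes. The promoter value pools genes that went opposite ways, from -16.3 points at ZFP2 to 41.9 points at GRM6, with 4 of 10 promoters higher and 5 lower without overlap, against 14.2% and 20.8% of all promoters. At 3p21.31 the pooled difference was 1.03 points in promoters, where the groups overlapped. It was 5.20 in the rest of gene bodies, 5.92 between genes and 7.75 in fingers, each without overlap. At 8q24.3 CpGs between genes went from 65.5% and 65.6% to 71.4% and 67.4%, also without overlap. Promoters and fingers of 8q24.3 went lower without overlap, by -1.47 and -0.71 points. The groups overlapped in the rest of its gene bodies. Outside the 5q35.3 window, 6 tiles of the 500 kb before it were called higher, up to 105 kb away, and 1 of the 500 kb after it. None was called within 500 kb of the other 5 windows, although the side of 8q24.3 towards the chromosome end held 1 tested tile.

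Against the KZFP clusters at 4p16.3, 12q24.33 and 19p12, the small clusters changed by fewer points in total. These spans ran from the first to the last of chosen KZFP genes, unlike the windows. No other KZFP clusters were compared. In WT the mean level was 34.6% at KZFP 4p16.3, 53.9% at KZFP 12q24.33 and 27.5% at KZFP 19p12. It was 62.9% in the pooled small clusters, which thus started higher. In ZNF274KO the means were 57.97%, 65.7% and 59.4%, against 66.6% in the pooled small clusters. The part of the starting level in the differences was not tested. Pooled, the small clusters went from 63.5% and 62.3% to 68.2% and 64.9%, a difference of 3.68 points, against 23.4 points at KZFP 4p16.3, 11.8 at KZFP 12q24.33, 32.0 at KZFP 19p12 and -0.55 in the rest of the genome. The level of the pooled small clusters relative to each of these 4 regions did not overlap between the groups, with an exact permutation p of 0.333, the smallest that 2 libraries against 2 allow (two-sided), and 0.389 after Benjamini-Hochberg adjustment over 14 such comparisons. KZFP 5q35.3 alone, at 17.8 points, lay between KZFP 12q24.33 and KZFP 4p16.3. Its change minus that of KZFP 12q24.33 was 5.98 points, minus that of KZFP 4p16.3 it was -5.60 points and minus that of KZFP 19p12 it was -14.2 points (exact permutation p = 0.333 for each). Without ZNF274KO 1 the value against KZFP 4p16.3 was -3.19 points, and over all libraries left out in turn it ran from -8.01 to -3.19 points. Pooled, the 4 small clusters other than 5q35.3 and 3p21.31 went from 66.2% and 65.5% to 66.1% and 63.2%. The groups overlapped there, as they did in the rest of the genome. The change of -1.13 points differed from that of the rest of the genome by -0.58 points, again with overlap (exact permutation p = 0.667). These comparisons all use the same 4 libraries.

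A list of 25 genes was read, chiefly of KRAB-dependent repression and of DNA methylation itself, such as TRIM28, SETDB1, DNMT1 and the TET genes. The list also held CTCF, SETD2, NPM1 and NCL. EdgeR called none in its body or promoter, with 2 bodies and 0 promoters of the 25 at an unadjusted p under 0.05, against 7.21% of all bodies and 6.05% of all promoters. Limma called none either and had 0 bodies and 0 promoters at an unadjusted p under 0.05. Over the genome it called 0.287% of bodies and 0.0% of promoters, with 6.72% and 5.51% at an unadjusted p under 0.05. Their bodies differed by -7.72 to 0.46 points and their promoters by -5.77 to 3.18 points.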

How the data were processed

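EM-seq reads of 4 libraries (WT 1, WT 2, ZNF274KO 1, ZNF274KO 2) were aligned by the authors with Msuite2 and HISAT2 to hg19 with rDNA added. The deposited values are read counts per CpG, strand and base call, per library, neither pooled nor normalised. Any filter on mapping quality or on duplicates is not given in the sources used here. Every one of the 27710999 autosomal and X-linked sites matched a CG dinucleotide of GRCh37. The mCG level is C reads over C plus T reads. Reads spanning several CpGs count at each. Limits treat such counts as independent, so that they are too narrow, and they cover counting error only. Counts were added up over tiles of 5 kb, gene bodies, promoters, finger-coding stretches (at least 3 fingers), and 500 kb bins fitted with the 6 windows, each with a minimum of 20 reads and 5 CpGs per library. Each kind was fitted over the whole genome in edgeR 4.0.16 (R 4.3.3) by its quasi-likelihood test, with library coefficients and a methylation log-odds for each group, Benjamini-Hochberg adjustment and a threshold of 0.05. Protein-coding genes alone were taken from GENCODE release 44 on GRCh37, so that stretches between genes may hold genes of other kinds. KRAB and SCAN domains came from pyhmmer 0.12.3 (E-value under 0.001), which gave 375 KZFP genes.

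The sources used here do not say whether the replicate numbers pair the libraries, and the main fits had no block. Deviations of same-numbered libraries had a correlation of -0.11 over all tiles, which cannot settle this. Members and lists were chosen with earlier results of these data known. Named are called bodies, promoters and finger-coding stretches, the 2 largest called tile changes of each direction per window (at least 20 CpGs, otherwise the largest tile without overlap), and the largest body and promoter difference of each window. Other genes are named beside them as neighbours, chosen after their values were seen, as were the 180-base stretches. A test on simulated data used 50000 tiles, 19828 bodies, 19746 promoters, 511 finger-coding stretches and 5733 bins of 500 kb. Changes of 10 points were recovered in 27 of 67 tiles, 57 of 67 bodies and 42 of 67 promoters. For finger-coding stretches it was 2 of 10, and for bins 67 of 67. Changes of 20 points were recovered in 62, 66 and 65 of 67 tiles, bodies and promoters, and in 8 of 10 finger-coding stretches. False calls were 7 of 162 tile calls, 7 of 195 body calls and 6 of 178 promoter calls. They were 3 of 23 calls of finger-coding stretches and 13 of 213 calls of bins. Only rises were simulated, in regions not already highly methylated in WT, and reads were drawn as independent. All regions of a kind were given the same spread between libraries, and no library was shifted as a whole. Recovery and false calls in the real data may therefore be less favourable. Alternatives were limma 3.58.1 (log2 ratios, pseudocount 1), the read minimum, tile, bin and promoter size, CpG depth, centring, a replicate block and leaving out each library. Python 3.11.15, pysam 0.24.0 and matplotlib 3.10.9 were also used.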

Additional observations from a re-analysis of the deposited data

How the results depend on the processing

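Leaving out each library in turn gave 66 to 99 called tiles, 5 to 11 bodies, 1 to 3 promoters, 5 to 6 finger-coding stretches (3 or 4 of them among the 6 called with all libraries) and a 5q35.3 difference of 15.3 to 20.2 points, the lowest count or value of tiles, bodies and 5q35.3 arising without ZNF274KO 1. Over the genome the same omissions gave 1896 to 6520 tiles, 98 to 229 bodies, 30 to 98 promoters and 53 to 84 finger-coding stretches, each lowest without ZNF274KO 1. For the other windows the differences were -0.21 to 1.78 points at 1q44, -1.05 to 1.39 at 8q24.3, -2.50 to 0.71 at 16p13.3, -3.27 to -0.30 at 7q36.1 and 3.49 to 6.35 at 3p21.31, so that the sign of the first 3 of these uncalled differences depends on 1 library. It turned at 1q44 without ZNF274KO 1 (-0.21), at 8q24.3 without WT 1 (-0.50) or ZNF274KO 1 (-1.05) and at 16p13.3 without WT 1 (0.27) or ZNF274KO 2 (0.71).

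Limma on log2 ratios called 15 tiles, 4 bodies and 0 promoters (edgeR 90, 9 and 3). Over the genome its calls also fell, from 2741 to 856 tiles, 182 to 57 bodies and 49 to 0 promoters. Tiles of 10 kb gave 49 calls among 295 and tiles of 25 kb 21 among 118, fewer tiles being tested (1425 and 572 over the genome). Promoters of 500 bases either side gave 0 calls by edgeR (1 over the genome). Centring on the genome-wide level gave 10 finger-coding stretches, 7 higher and 3 lower (90 over the genome, from 80). The replicate block gave 5 promoters, while promoters over the genome went from 49 to 159 and tiles from 2741 to 4791. It changed the counts of tiles, bodies and finger-coding stretches of the 6 windows by less than 1.5 times. Pairing WT 1 with ZNF274KO 2 and WT 2 with ZNF274KO 1, an alternative chosen after seeing the data, gave 5 promoters, 2 finger-coding stretches and a call of the 3p21.31 window (log2 odds ratio 0.31, adjusted p = 0.0477 by edgeR), while over the genome promoters went to 160 and finger-coding stretches from 80 to 34. The causes were not tested. All 70 recomputed differences from other clusters and all 307 of the 25 named called regions kept their direction, and 41 of the latter lost the call. With 2 libraries per group and 8 to 10 reads per CpG, changes in tiles, promoters and finger-coding stretches may have gone undetected. That holds for changes of about 10 points or less, and larger differences were left uncalled too. Examples are 17.6 points at the MSANTD5 promoter and -16.3 at the ZFP2 promoter (edgeR, adjusted p = 0.129 and 0.598). Others are 21.0 points in the ZNF879 fingers and 17.5 in the named 1q44 tile (edgeR, adjusted p = 0.061 and 0.666). Detection at the depth of 1q44 was not tested.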
